A study of Mus musculus with 4 samples.

Results

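The integrin and laminin genes were followed in mouse embryonic stem cell (ESC) cultures differentiated towards cardiomyocytes. Members were taken by name from the deposited expression table: every *Itga* and *Itgb* gene, without the genes of integrin-binding proteins, and every *Lama*, *Lamb* and *Lamc* gene. This gave 37 of 24637 genes, which fall into 7 leukocyte integrins, 19 matrix integrins and 11 laminins. The study asked what loss of *Taf4a*, which codes for a subunit of the general transcription factor TFIID, does to cardiac differentiation. Messenger RNA was sequenced in 4 libraries, 2 labelled WT (*Taf4a*+/+) and 2 labelled *Taf4a*-/-. By the study's methods the replicates are biological ones from independent ESC lines, made from blastocysts of *Taf4a*+/- crosses, and the null allele lacks exons 11 and 12; which line gave which library is not stated in the labels. All 4 cultures had been kept on inactivated embryonic fibroblast feeders, grown as embryoid bodies for 5 days in medium with 20% serum, and cultured for 9 more days on gelatin-coated plates. They are whole cultures of mixed cells, so a lower level may mean fewer cells of a type or less RNA per cell, which cannot be told apart.

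Integrins are receptors made of an alpha and a beta chain, and they join the matrix outside a cell, or a ligand on another cell, to the actin cytoskeleton. The beta 1 chain pairs with many alpha chains on most adherent cells, whereas the beta 2 chain is made by white blood cells. Laminins are trimers of an alpha, a beta and a gamma chain; they polymerize into the sheet of the basement membrane and are themselves bound by integrins. In the heart, integrins and laminins anchor cardiomyocytes at the costamere, and laminins of the alpha 1 and alpha 5 kind are the first of the early embryo.

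Between 21732746 and 27733034 reads per library were counted on genes, and 1 read was worth 0.877 to 1.11 normalized counts, the unit of the levels below. RNA of *Taf4a* itself stood at 889 and 678 in WT but at 1722 and 1799 in the libraries labelled *Taf4a*-/-, where it was thus higher (log2 fold change 1.18, standard error 0.16, adjusted p = 0.00569). Reads of exons 11 and 12 cannot be singled out in a count per gene. The genotypes are therefore those of the labels. The study identified its *Taf4a*-/- ESCs by PCR and reported, from immunostaining, that these ESCs lacked Taf4 protein. The label "cardiac cells" was checked with 6 cardiomyocyte markers: their summed level was 19013 and 21403 in WT but 1455 and 1673 in the libraries labelled *Taf4a*-/-, where 5 of 6 were lower. In the latter 6 of 6 pluripotency markers were higher. Their summed level was 3515 and 1346 in WT, so the WT libraries differed, and 12470 and 14380 in the others. Genes with a mean of at least 10 were compared with limma on log2(normalized count + 1), a scale that understates the change of low genes. A gene was called at an adjusted p under 0.05 over all 16926 genes tested. Fold changes are for *Taf4a*-/- over WT.

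Of the 37 members 36 could be tested; 20 were lower in the libraries labelled *Taf4a*-/-, 1 was higher and 15 were not called. Over all genes tested, 17.3% were called lower and 11.3% higher. The median log2 fold change of the tested members was -0.90, against -0.01 for all genes. Both libraries labelled *Taf4a*-/- lay below both WT libraries for 27 of the 36 and above them for 3, against 36.6% and 34.5% of all genes. By family, the leukocyte integrins had a median of -2.93 over 6 tested genes (4 lower and 1 higher), the matrix integrins a median of -0.81 (11 of 19 lower and 0 higher), and the laminins a median of -0.96 (5 of 11 lower and 0 higher). For matrix integrins and laminins the count of higher genes was also 0 at an unadjusted p under 0.05 in limma and 0 with limma's voom. Without WT replicate 2, 6 matrix integrins and 3 laminins were called lower; without *Taf4a*-/- replicate 1, 7 matrix integrins were; and without WT replicate 1, 8 laminins were. Calls over all genes moved the same way in these fits, to 1453, 1977 and 3106 lower against 2928 with all libraries. In each fit without a library, 1 genotype is left with a single library, which is assumed to vary like the other genotype's pair, since that pair alone gives the spread. The count of lower leukocyte integrins was 4 in each of the 4 fits without a library. Of the 21 called members, 11 were called under every alternative setting and without each library in turn, among them *Itgam*, *Itgb2*, *Itgax*, *Itgal*, *Itga4*, *Itga8*, *Itga9*, *Itgb3*, *Lama2* and *Lamb3*. The plot of the members' levels by library runs from *Itgad*, at or under 3 reads in every library, to *Itgb1*, at 19026 or more.

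**Figure D1:**
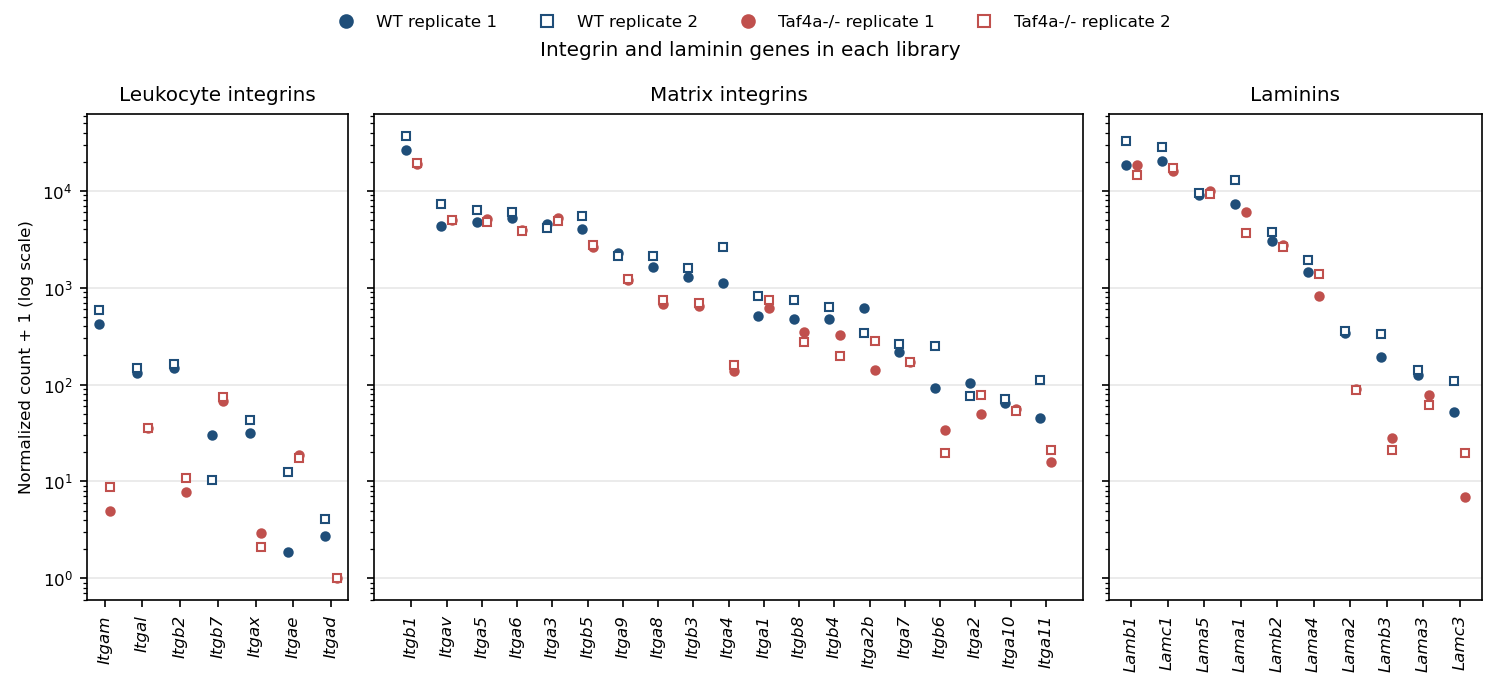
Normalized count + 1 of 36 members (log axis), 1 point per library, WT in blue and *Taf4a*-/- in red, in 3 panels for leukocyte integrins, matrix integrins and laminins. *Itgam* falls from 422 and 591 in WT to 3.92 and 7.74, whereas *Lama5* and *Itga5* have overlapping points.

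**Figure D2:**
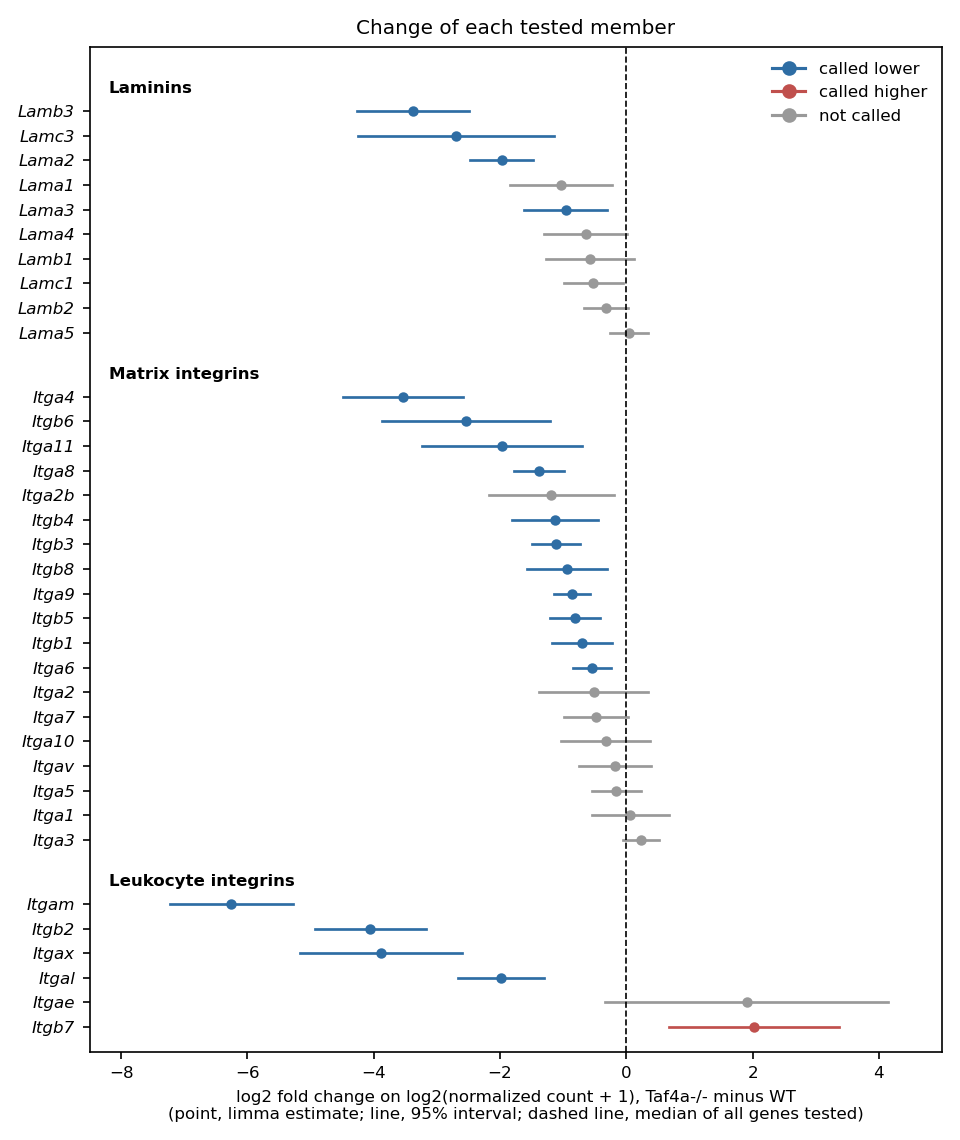
Log2 fold change (*Taf4a*-/- over WT) of 35 tested members with its 95% interval from limma, ordered by change within each group; blue was called lower, red higher and grey not called. *Itgb7* at 2.02 is the member called higher, and 19 of the members plotted were called lower.

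The leukocyte integrins contained the steepest falls of all members. *Itgam* codes for alpha M, which pairs with beta 2 to form the complement receptor of macrophages and neutrophils. It had 422 and 591 normalized counts in WT and 3.92 and 7.74 in the libraries labelled *Taf4a*-/-, the last being 4 and 7 reads. The fall in the mean was 86.9-fold (log2 fold change -6.25, standard error 0.40, adjusted p = 0.000981), and the genotypes were far apart. *Itgb2*, the shared beta chain of this family, went from 146 and 161 to 6.85 and 9.95, an 18.2-fold fall (log2 fold change -4.05, standard error 0.36, adjusted p = 0.00186). *Itgax*, alpha X of dendritic cells and macrophages, had 35 and 40 reads in WT and 2 and 1 in the others. Its ratio of reads was 22.9, with an exact 95% interval of 7.54 to 114 that covers counting error only (log2 fold change -3.88, standard error 0.53, adjusted p = 0.00553). *Itgal*, alpha L of lymphocytes and other white cells, fell less, from 130 and 148 to 34.3 and 34.3, or 4.05-fold (log2 fold change -1.98, standard error 0.28, adjusted p = 0.00618). Thus alpha L was the most abundant beta 2 partner left in the libraries labelled *Taf4a*-/-, at 5.37 normalized counts per kb of exon against 0.914 for alpha M, whereas in WT the order was the opposite, 21.7 against 79.4. *Itgad*, alpha D, was near the limit of detection, with 2 and 3 reads in WT and 0 in both others, and could not be tested.

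The remaining pair of this group, *Itgae* and *Itgb7*, code for the alpha E and beta 7 chains, which together bind E-cadherin and are known from lymphocytes of epithelia. Both had low read numbers. *Itgb7* was the only member called higher: it had 28.9 and 9.35 normalized counts in WT (33 and 9 reads) and 67.5 and 73.0 in the libraries labelled *Taf4a*-/- (69 and 66 reads). Both of the latter lay above both WT libraries, which differed from each other by -1.53 on the log2 scale, replicate 2 being lower (log2 fold change 2.02, standard error 0.55, adjusted p = 0.0409). The call was lost without WT replicate 2, where the log2 fold change was 1.25, and without either library labelled *Taf4a*-/-, at 2.07 and 1.96. *Itgae* had 1 and 11 reads in WT and 18 and 15 in the others, and did not pass (log2 fold change 1.91, standard error 0.92, adjusted p = 0.168); without WT replicate 2 it was called, at 3.27, but WT is then a single library with 1 read of this gene.

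Among these genes, 3 lie next to each other on the forward strand of chromosome 7 in NCBIM37: *Itgam* from 135206154 to 135271674, *Itgax* from 135273061 to 135294171 and *Itgad* from 135297890 to 135349015, while *Itgal* lies further upstream, from 134439774 to 134478651. For *Itgam*, *Itgax* and *Itgal*, both libraries labelled *Taf4a*-/- lay below both WT libraries, as they did for 36.6% of all genes tested. *Itgad* had too few reads for such a comparison. *Itgb2* is on chromosome 10 (76992997 to 77028453, forward strand) and *Itgb7* on chromosome 15 (102046426 to 102062366, reverse strand). Up to 250 bases before the start of 3 leukocyte integrin genes are given here so that the 2 neighbours that fell can be set beside the gene that rose. They are RefSeq sequences (GRCm38.p6), and their coordinates in NCBIM37 were found by an exact match. Capitals mark the letters GAGGAA, the core of the box bound by the myeloid factor PU.1, or TGTGGT, the core of the Runx site, on either strand (so also TTCCTC and ACCACA).
*Itgam*, chr7:135205904-135206153, forward strand: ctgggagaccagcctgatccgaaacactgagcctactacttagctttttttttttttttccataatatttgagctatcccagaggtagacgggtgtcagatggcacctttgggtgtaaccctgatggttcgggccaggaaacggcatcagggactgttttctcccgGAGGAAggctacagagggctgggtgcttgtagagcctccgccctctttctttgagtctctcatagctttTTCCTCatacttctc
*Itgax*, chr7:135272814-135273060, forward strand: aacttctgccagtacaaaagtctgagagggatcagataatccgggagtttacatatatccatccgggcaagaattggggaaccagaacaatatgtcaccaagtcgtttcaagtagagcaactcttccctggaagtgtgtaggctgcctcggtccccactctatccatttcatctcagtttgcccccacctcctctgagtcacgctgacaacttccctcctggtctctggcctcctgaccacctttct
*Itgb7*, chr15:102062367-102062616, reverse strand: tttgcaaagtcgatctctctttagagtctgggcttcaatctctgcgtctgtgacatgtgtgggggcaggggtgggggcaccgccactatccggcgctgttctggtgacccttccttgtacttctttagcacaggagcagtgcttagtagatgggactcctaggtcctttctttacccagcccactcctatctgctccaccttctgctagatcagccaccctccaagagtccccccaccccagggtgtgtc
The *Itgam* window holds GAGGAA on the forward strand 84 bases before the start and on the reverse strand 15 bases before it, and CCGCCC, the letters of a GC box, 47 bases before it, with no overlap between them. The windows of *Itgax* and *Itgb7* hold neither GAGGAA nor TGTGGT, nor CCGCCC, nor TATAAA. Of all 32851 windows of that length in the table, 23.3% hold GAGGAA, 14% TGTGGT, 32.7% CCGCCC and 12.4% TATAAA, searched on both strands. RefSeq windows were at hand for 23 of the 37 members (26 windows), and GAGGAA was in a window of 13 of these genes: 1 of 3 leukocyte integrins, 7 of 15 matrix integrins and 5 of 5 laminins. These are counts of genes, some with more than 1 window, whereas the 23.3% is a share of windows, so they cannot be set side by side. Of those 5 laminins, *Lama5*, *Lamb1* and *Lamb2* were not called. A match describes the letters and not a bound site.

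Of the markers of white blood cells, those of macrophages moved with these genes, and 12 of 12 were lower. Their summed level was 10854 and 13069 in WT and 211 and 247 in the libraries labelled *Taf4a*-/-, and *C1qa* was at 0 in both of the latter. *Ptprc*, the pan-leukocyte phosphatase, went from 356 and 481 to 1.96 and 4.42. Of 5 neutrophil markers found, *Csf3r* was the only one with enough reads to test, and it was lower (log2 fold change -4.72). The other 4 were at or under 3 reads in both WT libraries, so a change of neutrophils cannot be read from this list. The summed level of 6 lymphocyte markers was 136 and 103 in WT and 156 and 146 in the others. Most of it was *Lck*, at 122 and 91.4 in WT and 141 and 125 in the others. *Lck* was the only marker of this list with enough reads to test, and it was not called (log2 fold change 0.33). Of the 6 markers, 4 were at or under 3 reads in both WT libraries, and 3 were so in both libraries labelled *Taf4a*-/-. The part of these cells in the results was not tested.

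Among the matrix integrins, the beta chains fell together but by different amounts. *Itgb1*, the common beta chain, was the most abundant integrin per length in every library: it made up 80.1% and 80.9% of the beta chains' normalized counts per kb in WT and 82.4% and 82.4% in the libraries labelled *Taf4a*-/-. Its level was 26442 and 37146 in WT and 19026 and 19605 in the others, so the mean fell to 60.8% of WT (log2 fold change -0.70, standard error 0.20, adjusted p = 0.0433). The genotypes did not overlap, but the call was held by a small margin: it was lost without WT replicate 2 (log2 fold change -0.45) and without either library labelled *Taf4a*-/- (-0.68 and -0.72). *Itgb5*, which pairs with alpha V and binds vitronectin, went from 4064 and 5447 to 2608 and 2770 (log2 fold change -0.81, standard error 0.16, adjusted p = 0.0174), and was not called without *Taf4a*-/- replicate 1, at -0.76. *Itgb3*, the partner of alpha V and of platelet alpha IIb, went from 1283 and 1615 to 640 and 687 (log2 fold change -1.12, standard error 0.16, adjusted p = 0.00597). *Itgb8*, an alpha V partner that takes part in activating latent TGF-beta, went from 472 and 744 to 348 and 272 (log2 fold change -0.94, standard error 0.26, adjusted p = 0.042); its call was lost without WT replicate 2 (-0.61) and without *Taf4a*-/- replicate 2 (-0.76). *Itgb6*, the alpha V partner of epithelia, had the largest fall of a beta chain outside the leukocyte group, from 91.2 and 249 to 33.3 and 18.8, or 6.54-fold (log2 fold change -2.54, standard error 0.55, adjusted p = 0.0211). It was not called without WT replicate 2, where the log2 fold change was -1.82.

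Of the alpha chains that bind RGD ligands, 1 of 4 was lower. These are too few genes to set against the 17.3% of all genes tested that were called lower. *Itgav*, the alpha V chain shared by beta 3, beta 5, beta 6 and beta 8, was not called: it had 4389 and 7314 in WT and 5010 and 5029 in the libraries labelled *Taf4a*-/-, which lay between the WT values (log2 fold change -0.18, 95% interval -0.75 to 0.40). Without WT replicate 1 it was called lower, at -0.54, and without WT replicate 2 its value was 0.19. *Itga5*, the fibronectin receptor chain, also overlapped between genotypes, with 4818 and 6330 in WT and 5134 and 4767 in the others (log2 fold change -0.16, 95% interval -0.55 to 0.23). It was the most abundant alpha chain per length, with 28.5% and 30.7% of the alpha chains in WT and 34.1% and 32.4% in the libraries labelled *Taf4a*-/-. *Itga8*, which pairs with beta 1 and binds nephronectin, was lower throughout, at 1642 and 2148 against 686 and 755 (log2 fold change -1.38, standard error 0.17, adjusted p = 0.00385). Its exons overlap those of *E030013I19Rik*, on the other strand, by 369 bases. *Itga2b*, platelet alpha IIb, had 610 and 344 in WT and 142 and 284 in the others and was not called (log2 fold change -1.19, adjusted p = 0.0739); without *Taf4a*-/- replicate 2 it was called, at -1.68. Of 6 platelet markers tested, 2 were lower, and the summed level of the 7 genes of that list was 794 and 736 in WT and 137 and 230 in the others. With *Itgb1* counted apart, as the common beta chain, 5 of the 8 chains of integrins that recognise the RGD motif were lower (*Itga8*, *Itgb3*, *Itgb5*, *Itgb6* and *Itgb8*).

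*Itga4* had the largest fall of a matrix integrin. Alpha 4 pairs with beta 1 or beta 7, binds VCAM-1 and fibronectin, and in the embryo is needed for the epicardium. Its level was 1110 and 2663 in WT and 138 and 157 in the libraries labelled *Taf4a*-/-, a 12.8-fold fall (log2 fold change -3.54, standard error 0.39, adjusted p = 0.00325). WT replicate 2 was above WT replicate 1 by 1.26 on the log2 scale, but both stood well above the other libraries, and the log2 fold change ran from -4.17 to -2.91 when either WT library was left out. Its ligand gene *Vcam1* went from 1550 and 1742 to 115 and 94 (log2 fold change -3.97, standard error 0.18, adjusted p = 0.000556). *Itga4* lies on chromosome 2 from 79095583 to 79173280 on the forward strand of NCBIM37, and 1124 bases of its exons overlap those of *Cerkl* on the other strand. Since the strand setting of the counting is not given in the sources used here, reads of the overlap cannot be told apart. The 250 bases before the start of this gene are shown because the fall was the largest of a matrix integrin; they come from RefSeq as above, and the capitals mark TGTGGT on the reverse strand.
*Itga4*, chr2:79095333-79095582, forward strand: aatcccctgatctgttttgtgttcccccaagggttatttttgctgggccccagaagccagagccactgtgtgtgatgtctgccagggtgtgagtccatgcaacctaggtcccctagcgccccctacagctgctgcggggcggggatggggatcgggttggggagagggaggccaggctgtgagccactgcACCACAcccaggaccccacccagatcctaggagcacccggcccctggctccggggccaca
The Runx core lies 60 bases before the start and CCGCCC, on the reverse strand, 114 bases before it; GAGGAA and TATAAA are not in this window. The related alpha 9 chain, *Itga9*, which binds tenascin-C and VCAM-1, fell by less, from 2289 and 2129 to 1189 and 1244 (log2 fold change -0.86, standard error 0.12, adjusted p = 0.00553). Its libraries agreed closely within each genotype.

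Of the 4 collagen-binding alpha chains 1 was lower, again too few genes to set against the 17.3% of all genes tested. *Itga11*, found on fibroblasts, went from 43.8 and 111 to 14.7 and 19.9 (log2 fold change -1.97, standard error 0.52, adjusted p = 0.0367), and it was not called without WT replicate 2 (-1.31) or without *Taf4a*-/- replicate 1 (-1.76). *Itga1* had 508 and 820 in WT and 614 and 743 in the others, so the genotypes overlapped (log2 fold change 0.07, 95% interval -0.54 to 0.67). *Itga2* also overlapped (log2 fold change -0.51, adjusted p = 0.312). *Itga10*, a chain of cartilage, had 64.0 and 70.7 in WT and 54.8 and 52.0 in the others (log2 fold change -0.33, adjusted p = 0.428). Its exons overlap another gene on the same strand, so its count is uncertain. The collagen genes *Col1a2* and *Col3a1* are given beside their receptors: *Col1a2* went from 86235 and 111173 to 5396 and 9517 (log2 fold change -3.77) and *Col3a1* from 162786 and 205106 to 15154 and 13487 (-3.68). Fibroblast markers, among which *Col1a2* is counted, were lower for 5 of 6 genes, with a summed level of 266334 and 391273 in WT and 32957 and 46835 in the others, and their part in the values of the matrix integrins was not tested. Of 4 smooth muscle markers 2 were lower.

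With the common chain *Itgb1* counted apart, 2 of the 4 chains of laminin receptors were lower. These too are few genes beside the 17.3% of all genes tested. *Itga6*, which pairs with beta 1 or beta 4 and is found on stem cells and epithelia, went from 5274 and 6123 to 3903 and 3885 (log2 fold change -0.55, standard error 0.12, adjusted p = 0.0242). The genotypes were apart, but the call was lost without either library labelled *Taf4a*-/-, at -0.55 and -0.54. *Itgb4*, the partner of alpha 6 in hemidesmosomes, went from 477 and 637 to 321 and 197 (log2 fold change -1.13, standard error 0.28, adjusted p = 0.0313). It was called in 1 of the 4 fits without a library, in which its log2 fold change ran from -1.48 to -0.78, and its exons overlap *B230344G16Rik* on the other strand by 537 bases. *Itga7*, the laminin receptor chain of muscle, had 218 and 259 in WT and 169 and 170 in the others and did not pass (log2 fold change -0.48, adjusted p = 0.129). *Itga3*, the receptor chain of epithelia, had 4535 and 4177 in WT and 5294 and 4934 in the libraries labelled *Taf4a*-/-. Both of the latter were above both WT libraries, yet the difference was small (log2 fold change 0.23, 95% interval -0.05 to 0.52, adjusted p = 0.182). Its share of the alpha chains per length was 20.6% and 15.5% in WT and 27% and 25.7% in the others.

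The 11 laminin genes ranged in the same way from large falls to no detectable change. *Lamb3*, the beta chain of an epithelial laminin whose alpha chain is alpha 3, fell furthest. It had 194 and 329 normalized counts in WT and 27.4 and 19.9 in the libraries labelled *Taf4a*-/-, an 11.1-fold fall (log2 fold change -3.38, standard error 0.37, adjusted p = 0.00309). *Lama3*, the alpha chain of the same trimer, had 126 and 141 in WT and 76.4 and 60.8 in the others (log2 fold change -0.96, standard error 0.27, adjusted p = 0.0435). This call was the least secure of the family: it was made in 3 of 8 alternative settings and in 0 of the 4 fits without a library, where the log2 fold change ran from -1.12 to -0.80. Both chains were lower, by unequal amounts; per length, *Lamb3* had 59.9 normalized counts per kb in WT and *Lama3* 12.7. Epithelial markers were lower for 4 of 6 genes, with a summed level of 27634 and 32285 in WT and 27620 and 22016 in the others; *Krt5*, a keratin of basal epithelia, went from 156 and 69.6 to 3.92 and 1.11. Their part in the laminin values was not tested.

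*Lama2*, the alpha chain of muscle basement membranes, went from 337 and 356 to 89.1 and 86.3, a 3.95-fold fall (log2 fold change -1.97, standard error 0.21, adjusted p = 0.00282). The replicates differed little, and *Lama2* lay among the members with the smallest spread. *Lamc3*, a minor gamma chain, went from 51.7 and 108 to 5.87 and 18.8 (log2 fold change -2.70, standard error 0.64, adjusted p = 0.0269). Without WT replicate 2 it was not called, at -2.18, and 382 bases of its exons overlap *Gm13441* on the other strand.

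The abundant laminin chains did not pass the test. *Lamc1*, the gamma chain of most laminins, had 20291 and 28482 in WT and 16148 and 17315 in the libraries labelled *Taf4a*-/- (log2 fold change -0.52, 95% interval -0.99 to -0.06, adjusted p = 0.09). *Lamb1*, its usual beta partner, overlapped between genotypes, with 18386 and 32554 in WT and 18539 and 14520 in the others (log2 fold change -0.58, 95% interval -1.27 to 0.12). *Lama1*, the alpha chain of the laminin that embryoid bodies and parietal endoderm deposit, had 7275 and 12933 in WT and 6105 and 3691 in the others (log2 fold change -1.03, 95% interval -1.84 to -0.22, adjusted p = 0.0631). For these 3 genes the higher WT library was replicate 2. Without WT replicate 1, when the spread comes from the 2 libraries labelled *Taf4a*-/- alone, all 3 were called lower, with log2 fold changes of -0.77 for *Lamc1*, -0.99 for *Lamb1* and -1.45 for *Lama1*, and without WT replicate 2 the values were -0.28, -0.16 and -0.62 and none was called. *Lama1* was also called without *Taf4a*-/- replicate 1, at -1.39. Visceral and parietal endoderm markers were lower for 5 of 8 genes, with a summed level of 62628 and 57710 in WT and 7145 and 7567 in the others and *Alb* at 0 in both libraries labelled *Taf4a*-/-. Most of that sum was *Afp*, a gene of visceral endoderm, at 42655 and 36728 in WT and 152 and 140 in the others. The parietal endoderm genes *Thbd* (log2 fold change -0.41) and *Plat* (0.42) and the endoderm factor *Sox17* (-0.34) were not called, and *Plat* was above WT in both of those libraries. The part of these cells in the laminin values was not tested. *Lama4*, of vessel walls, and *Lamb2* were not called either (log2 fold changes -0.65 and -0.33); *Lama4* was called without *Taf4a*-/- replicate 2, at -1.02, and *Lamb2* without WT replicate 1, at -0.49. *Lama5* overlapped between genotypes, at 9026 and 9600 in WT and 9949 and 9254 in the others (log2 fold change 0.04, 95% interval -0.25 to 0.34).

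The make-up of the laminin alpha and beta chains was compared per length, as a share of the normalized counts per kb of the chains of one kind. *Lama1* and *Lama5* together formed most of the alpha chains. *Lama5* made up 46% and 34.9% in WT and 54.6% and 61.1% in the libraries labelled *Taf4a*-/-, and *Lama1* 44.4% and 56.3% against 40.1% and 29.2%. So in WT replicate 2 alpha 1 was the main alpha chain, whereas alpha 5 led in the other 3 libraries, by a small margin in WT replicate 1. The share of *Lama2* went from 2.01% and 1.52% to 0.573% and 0.667%. Among the beta chains *Lamb1* held 75.7% to 81.5% in every library, and *Lamb3* went from 1.82% and 1.87% to 0.265% and 0.236%. These shares are given as a description and were not tested; an exact permutation test of 2 libraries against 2 gives no p under 0.333.

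**Figure D3:**
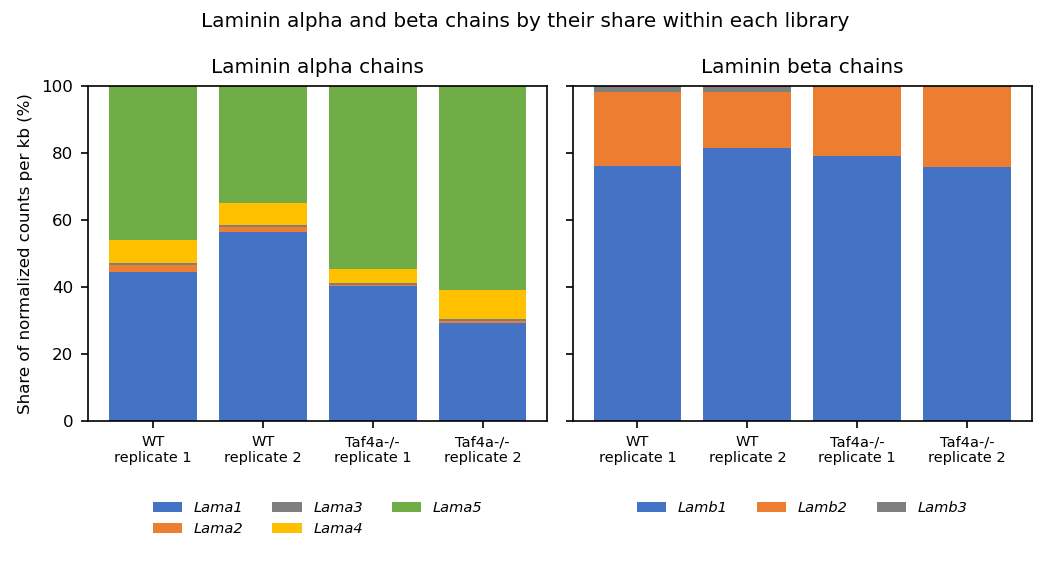
Share (%) of each laminin chain in the normalized counts per kb of the alpha and of the beta chains, 1 stacked bar per library. *Lama5* takes 54.6% and 61.1% of the alpha chains in the libraries labelled *Taf4a*-/- and 46% and 34.9% in WT, and the thin *Lamb3* segment of the WT bars, 1.82% and 1.87%, is hardly seen in the others.

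The WT libraries differed from each other for most members, and in one direction. WT replicate 2 was above WT replicate 1 for 31 of the 36 tested members and for 11 of 11 laminins, against 8773 of all 16926 genes tested. The median difference was 0.405 on the log2 scale for the tested members and 0.02 for all genes tested. *Itgae*, with its few reads, differed by 2.73, *Itgb6*, *Itga11*, *Itga4* and *Lamc3* differed by 1.44, 1.32, 1.26 and 1.05, and *Itgb7*, *Itga2b* and *Itga2* went the other way by -1.53, -0.83 and -0.47. Between the libraries labelled *Taf4a*-/- (replicate 2 minus replicate 1) the median difference was 0.003, but single members differed in both directions. *Lamc3* and *Itga2b* differed by 1.53 and 1.00, and *Itgb6* and *Lama1* by -0.79 and -0.73. The median log2 fold change of the laminins was -0.62 with WT replicate 2 left out and -1.04 with WT replicate 1 left out, and that of the matrix integrins -0.61 and -0.81.

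**Figure D4:**
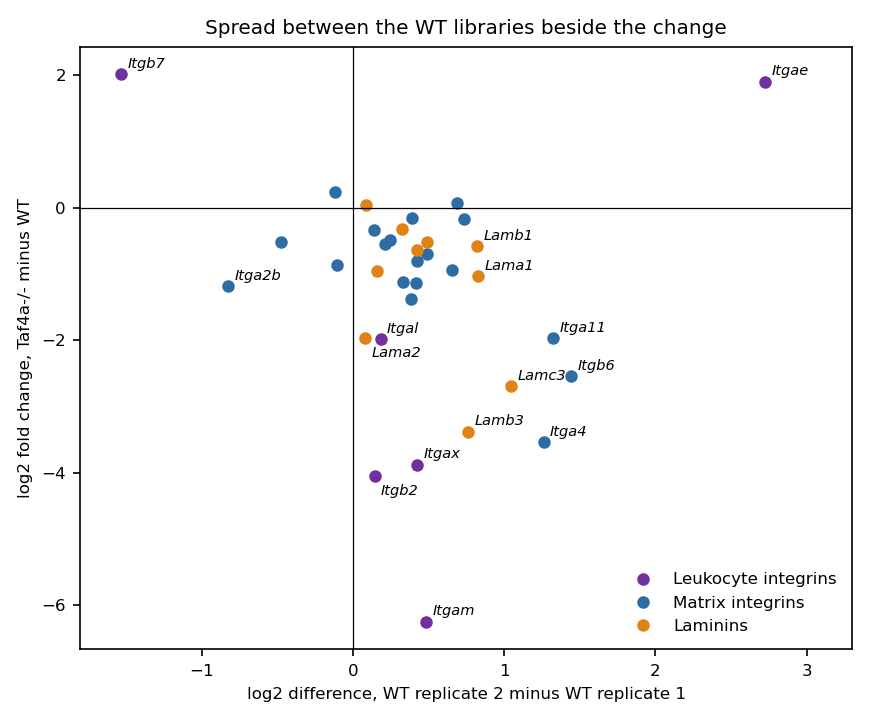
Difference between the WT libraries (replicate 2 minus replicate 1, log2, x axis) against the log2 fold change of *Taf4a*-/- over WT (y axis) for 35 tested members, coloured by group. Of the 35 points 30 lie to the right of 0; *Itgb2*, *Itgal* and *Lama2* lie close to the vertical line, and *Itga4*, *Itgb6* and *Itga11* far to its right.

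The genes that work with integrins were followed in lists of their own. Of 28 genes of the adhesion machinery inside the cell, 9 were lower and 0 higher; the median log2 fold change was -0.30. The largest changes were in *Parvg*, a parvin of blood cells, from 62.2 and 47.8 to 3.92 and 3.32 (log2 fold change -3.59, adjusted p = 0.00412); *Fermt3*, the kindlin of blood cells, from 487 and 464 to 97.9 and 250 (-1.60, adjusted p = 0.0366); and *Ptk2b*, a focal adhesion kinase, from 800 and 1076 to 367 and 298 (-1.49, adjusted p = 0.0057). The general talin gene *Tln1* had 10421 and 11671 in WT and 11528 and 11709 in the others and was not called (0.08). Of 18 partners of laminin in the basement membrane 3 were lower and 0 higher around a median of -0.41, namely *Frem2* (-1.26), *Sparc* (-1.23) and *Col4a6* (-0.82). Their share is close to the 17.3% of all genes called lower. Of 12 other matrix ligands of integrins, 8 were lower and 0 higher; their median was -0.87. *Vtn*, the vitronectin gene, went from 317 and 1207 to 0.979 and 6.64 (log2 fold change -7.32, standard error 0.84, adjusted p = 0.00355), and *Col1a2* and *Col3a1* followed with the values above. *Fn1*, fibronectin, was not called, at 83244 and 130583 in WT and 136047 and 142736 in the others (log2 fold change 0.42, 95% interval -0.27 to 1.10). Of 9 ligands of leukocyte integrins found, 3 were lower, 1 was higher and the median was -0.62. Beside *Vcam1*, *Icam1*, the ligand of alpha L, went from 473 and 867 to 340 and 267 (log2 fold change -1.09, adjusted p = 0.0444), and *Jam2* rose from 175 and 118 to 371 and 326 (1.27, adjusted p = 0.0168). Where 0 genes of a list were higher, it was also 0 at an unadjusted p under 0.05 in limma and with voom. Leaving out a library moved several of these counts. For the adhesion machinery, 6 genes were called lower without WT replicate 2 and 3 without *Taf4a*-/- replicate 1. For the basement membrane partners it was 7 without WT replicate 1 and 1 without *Taf4a*-/- replicate 1. Among the ligands of leukocyte integrins, 1 was lower when replicate 2 of either genotype was left out; 2 were called higher without WT replicate 1, and 0 without WT replicate 2 or *Taf4a*-/- replicate 1.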

How the data were processed

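Polyadenylated RNA of 4 libraries (2 WT, 2 *Taf4a*-/-) was sequenced. Per the submitters' processing notes and the study's methods, the authors used CASAVA 1.8, TopHat 1.3.3, HTSeq 0.5.3p1 and DESeq with mm9 (NCBI37), and deposited counts per gene divided by 1 size factor per library. The annotation release and the strand setting are not given in the sources used here. The size factors were 1.14 and 0.962 (WT) and 1.02 and 0.904 (*Taf4a*-/-). All values came out as whole reads within 0.05 of a read (100%), 24637 genes in all.

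The members and all lists were chosen with earlier results of these data known. Genes with a mean of at least 10 were fitted with limma 3.58.1 in R 4.3.3 on log2(normalized count + 1). The fit used lmFit and eBayes with a variance trend (4.17 prior degrees of freedom), with Benjamini-Hochberg adjustment over all of these genes. It was also run on simulated data in which every gene had the same dispersion. That run cannot show how calls hold for genes whose replicates differ more. The p-values and 95% intervals of the main fit rest on the spread between 2 libraries per genotype. Chain lengths are merged exons of the NCBIM37 annotation, where all 24637 identifiers were found. The text names the members, except 1 that is counted in the totals but not reported here, *Taf4a*, and per companion list the 3 called genes with the largest change whose genotypes do not overlap; *Tln1*, *Fn1*, *Ptprc*, *Csf3r*, *Krt5*, *Afp*, *Thbd*, *Plat* and *Sox17* were added after their values were seen. For marker lists, counts, summed levels and markers at 0 are given; 4 listed genes were not found. The exact interval of the *Itgax* read ratio and the floor of 3 reads cover counting error only. Alternatives were the pseudocount, the filter, the scaling, the variance model, the grouping of members, a replicate block, each library left out and, added after seeing the data, voom on the recovered reads. Figures were drawn with matplotlib 3.10.9 in Python 3.11.15.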

Additional observations from a re-analysis of the deposited data

How the results depend on the processing

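The planned edgeR and DESeq2 alternatives were not run; limma's voom, run on recovered reads, was chosen after seeing the data. Of the 21 called members, 11 were called under every alternative run and without each library in turn. The leukocyte integrins had 0 genes called higher, in place of 1, with a mean of at least 50 (*Itgb7* was not in that test) and without the variance trend. Their median log2 fold change was -1.87 with a pseudocount of 10, -1.98 without a filter, -4.05 with a mean of at least 50, -2.39 with quantile normalization and -2.76 with *Itga2b* and *Itga4* counted among them. Quantile normalization put the median of all genes at 0.11 and all calls at 2448 lower and 2676 higher, against 2928 and 1906; the laminin median was then -0.61, the adhesion machinery had 1 gene called higher, the ligands of leukocyte integrins 2, and *Itga10*, not called, was at 0.023. Without the variance trend, which called 1741 lower and 856 higher over all genes, 4 matrix integrins, 4 adhesion machinery genes, 1 basement membrane partner and 1 ligand of leukocyte integrins were lower; voom gave 1 such ligand. Over the fits without 1 library, counts called lower ran from 6 to 11 for matrix integrins, 3 to 8 for laminins, 3 to 12 for the adhesion machinery, 1 to 7 for basement membrane partners and 1 to 3 for ligands of leukocyte integrins; counts called higher ran from 0 to 1 for leukocyte integrins, 0 to 1 for the machinery and 0 to 2 for those ligands. Medians ran from -3.81 to -2.78 for leukocyte integrins, -0.81 to -0.61 for matrix integrins, -1.12 to -0.62 for laminins, -0.36 to -0.20 for the machinery, -0.56 to -0.26 for basement membrane partners, -0.99 to -0.76 for other matrix ligands and -0.80 to -0.43 for ligands of leukocyte integrins. Members that were not called and changed sign ran from -0.008 to 0.096 (*Lama5*), -0.28 to 0.41 (*Itga1*), -0.356 to 0.038 (*Itga5*) and -0.54 to 0.19 (*Itgav*). The causes were not tested. No source pairs the libraries by their replicate numbers; deviations of same-numbered libraries had a correlation of 0.012. With the replicate block, 4 leukocyte integrins, 9 matrix integrins and 5 laminins were lower (2657 lower and 1536 higher over all genes); the calls of *Lama3*, *Itgb1* and *Itgb8* were lost and *Lama4* was gained. *Itgad*, with at most 3 reads per library, could not be tested at this depth.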

Other observations

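The genes of integrin-binding proteins were left out of the members. *Itgb3bp*, a centromere protein despite its name, had 202 and 176 normalized counts in WT and 230 and 301 in the libraries labelled *Taf4a*-/- (log2 fold change 0.48, adjusted p = 0.156), and *Itgb1bp1*, a regulator of integrin activation, had 582 and 754 against 583 and 556 (log2 fold change -0.22, adjusted p = 0.377). *Itgb1bp2*, a muscle chaperone, had 31.6 and 13.5 against 17.6 and 15.5 (log2 fold change -0.31, adjusted p = 0.683). *Itgb1bp3* and *Itgbl1*, an integrin-like matrix gene, were at or under 3 reads in every library and were not tested. Of 6 markers of endothelial cells, which make *Lama4*, 0 were called by limma and 2, *Tek* and *Emcn*, had an unadjusted p under 0.05 with lower values in the libraries labelled *Taf4a*-/-. Their list had a summed level of 11125 and 7324 in WT and 5773 and 9689 in the others.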
